A study of Mus musculus with 6 samples.

Results

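The tubulin isotypes are the products of separate genes that encode the α and β subunits of microtubules. The 10 genes described here were taken by their gene symbols, with no threshold on their values, and comprised 3 α-tubulin genes (Tuba1a, Tuba1b and Tuba4a) and 7 β-tubulin genes (Tubb2a, Tubb2b, Tubb3, Tubb4a, Tubb4b, Tubb5 and Tubb6). They were matched through their Ensembl gene IDs and made up 10 of the 18437 mRNAs listed in any library. All 10 were listed in 5 libraries and 9 in the brain-labelled library, where Tubb2b was not listed.

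Ribo-seq, the sequencing of the mRNA fragments that translating ribosomes protect from RNase digestion, was performed on heart, lung, brain, small intestine, colon and kidney. The mice were wild type (WT), of strain C57BL/6J and 4 weeks of age, and the description of every sample was no treatment, so the 6 libraries shared genotype, strain, age and treatment and differed in the labelled tissue. There was 1 library per tissue, so no spread between animals could be measured and no test between tissues was possible. The intervals below (95%) cover counting error only, and intervals that overlap do not show that the values are equal. Ribosome density is given as RPKM, in which the reads on a coding sequence (CDS) are divided by its length in kilobases and by the CDS reads of that library in units of 1000000.

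An α and a β subunit form a heterodimer, and heterodimers polymerize head to tail into the wall of the microtubule. The isotypes differ mainly at the carboxy terminus, an acidic tail on the outer surface of the microtubule that carries glutamate chains added by enzymes of the TTLL family and that contacts motors and microtubule-associated proteins. Tubb3 is a widely used neuronal marker, Tuba1a is the main α isotype of the developing brain, Tubb4a is enriched in the nervous system, Tubb4b is a main isotype of cilia, and Tubb5 is expressed in most tissues.

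The libraries held between 4504853 and 10635031 reads on CDSs, with 11520 to 15028 mRNAs having reads. The labels were checked with 3 markers for each tissue. Markers of heart and lung summed highest in the libraries with those labels, whereas for the other 4 labels they summed highest elsewhere. Brain markers (Snap25, Gfap and Mbp) summed to 818 RPKM in the small intestine-labelled library and to 25.3 in the brain-labelled one. Small intestine markers were highest in the brain-labelled library, colon markers in the kidney-labelled one, and kidney markers in the colon-labelled one. Each library is therefore named only by its label (the brain-labelled library and so on), and the values say nothing firm about these 4 tissues themselves. A single mRNA, Kri1, took between 0.400% and 22.1% of the reads of a library, so that every other RPKM there is lower by that share, with no change of rank. In bulk tissue, fewer cells of a type and less translation per cell cannot be told apart.

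The stretches printed next are the ends of the coding sequence of 7 isotypes, since the tail is where the isotypes differ most and where glutamates are modified. They cover the last 60 nt of the CDS with the stop codon, 5′ to 3′ on the coding strand, from GENCODE release M39 on GRCm39, and each lies in 1 exon. Codons for glutamate are in capitals.
Tuba4a (chr1:75192266-75192325, minus strand): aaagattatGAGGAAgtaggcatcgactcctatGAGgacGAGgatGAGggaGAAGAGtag
Tubb2a (chr13:34258451-34258510, minus strand): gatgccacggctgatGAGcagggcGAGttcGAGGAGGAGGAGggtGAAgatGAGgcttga
Tubb2b (chr13:34311454-34311513, minus strand): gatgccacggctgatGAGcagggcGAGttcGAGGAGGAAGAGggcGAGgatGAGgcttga
Tubb3 (chr8:124148362-124148421, plus strand): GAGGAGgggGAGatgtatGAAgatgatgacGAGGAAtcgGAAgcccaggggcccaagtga
Tubb4a (chr17:57387690-57387749, minus strand): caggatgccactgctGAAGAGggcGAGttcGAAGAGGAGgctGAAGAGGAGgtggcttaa
Tubb4b (chr2:25112320-25112379, minus strand): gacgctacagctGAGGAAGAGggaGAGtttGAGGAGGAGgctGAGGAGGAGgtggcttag
Tubb5 (chr17:36145874-36145933, minus strand): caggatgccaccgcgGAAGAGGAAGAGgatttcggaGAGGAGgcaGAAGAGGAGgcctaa
Among these 7 ends, Tubb4b had the most glutamate codons (10), and Tuba4a and Tubb3 the fewest (7 each). Tubb2a and Tubb2b each held 8, at the same places.

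The coding sequences of some isotypes are so alike that a footprint cannot tell them apart. Tuba1a and Tuba1b were identical at 98.3% of aligned CDS bases, with 23 differences, and Tubb2a and Tubb2b at 96.5%, with 47 differences. The 60 nt in which Tuba1a and Tuba1b differed most, at 10 positions, are at CDS positions 640 to 699 counted from the first base of the start codon, with the differing bases in capitals.
Tuba1a (chr15:98848572-98848631, minus strand): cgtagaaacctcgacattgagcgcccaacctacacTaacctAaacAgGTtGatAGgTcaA
Tuba1b (chr15:98830120-98830179, minus strand): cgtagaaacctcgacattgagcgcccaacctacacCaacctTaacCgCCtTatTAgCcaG
Tubb2a and Tubb2b likewise differed at 10 positions in their most different 60 nt, at CDS positions 112 to 171. These stretches span an intron, so the coordinates include it.
Tubb2a (chr13:34260267-34260586, minus strand): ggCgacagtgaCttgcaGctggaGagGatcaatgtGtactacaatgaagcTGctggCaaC
Tubb2b (chr13:34312961-34313283, minus strand): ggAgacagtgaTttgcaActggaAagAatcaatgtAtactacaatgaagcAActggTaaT
Only footprints that cover a differing base can tell the members of a pair apart. The stretches were chosen within each pair. Whether they also differ from other near copies, such as Tuba1c for the α pair, was not looked at here.

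According to the methods, reads that map to several places were excluded, so an isotype with a close copy loses reads. As a rough measure of this loss, the CDS positions were counted at which a window of 29 nt occurred once among 21594 mRNAs, 1 per gene. Such windows placed 13.9% of the positions of Tuba1a and 11.3% of those of Tuba1b, and 38.7% of those of Tubb2a and of Tubb2b. The other 6 isotypes were placed at 93.9% to 98.7% of their positions. With windows of 25 and 34 nt the share was 11.8% and 16.2% for Tuba1a, and 36.9% and 40.9% for Tubb2a. Only exact copies of a window were counted, whereas the methods kept reads with up to 2 mismatches. At 29 nt, the mRNA that shared the most positions was Tuba1c for both Tuba1a (72.9%) and Tuba1b (82.6%). The levels of Tuba1a, Tuba1b, Tubb2a and Tubb2b are therefore lower bounds, and a second measure, the RPKM divided by the share of uniquely placed positions, is given where it changes a comparison.

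**Figure D1:**
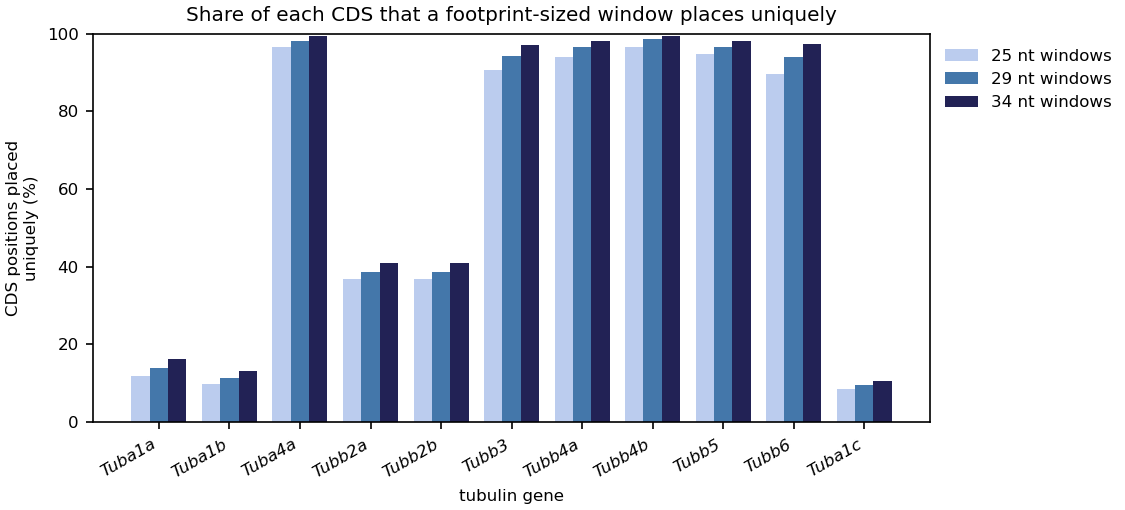
Percent of the CDS positions of each of the 10 isotypes, and of the near copy Tuba1c, that a window of 25, 29 or 34 nt (bars) places uniquely among 21594 mRNAs. Tuba1a (13.9% at 29 nt), Tuba1b (11.3%) and Tuba1c (9.50%) stand lowest, Tubb2a and Tubb2b (38.7%) are intermediate, and the others are at 93.9% to 98.7%.

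The α isotypes are described first. Tuba4a, an α isotype whose CDS, as printed above, ends in glutamate codons before the stop codon, was the highest by RPKM of the 3 α genes in all 6 libraries. Its density was 180 RPKM in the brain-labelled library, 209 in the colon-labelled one, 346 in the heart-labelled one, 62.6 in the kidney-labelled one, 65.2 in the lung-labelled one and 196 in the small intestine-labelled one. The value in the heart-labelled library was 1.65-fold above the next, and the intervals of those labelled colon and small intestine overlapped, as did those of lung and kidney. The highest value was 5.52-fold above the lowest (95% interval 5.08 to 6.02).

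Tuba1a was read at 12.4 RPKM in the brain-labelled library, 0.328 in the colon-labelled one, 3.43 in the heart-labelled one, 1.85 in the kidney-labelled one, 54.1 in the lung-labelled one and 18.9 in the small intestine-labelled one. The value in the colon-labelled library rests on 2 reads, and the ratio of highest to lowest was 165 with an interval from 45.4 to 1365. The lung-labelled library was 2.86-fold above the next, and the interval of the heart-labelled library overlapped that of kidney, and kidney's that of colon.

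Tuba1b, a broadly expressed α isotype, was read at 57.7 RPKM in the lung-labelled library, 15.9 in the kidney-labelled one, 13.3 in the small intestine-labelled one, 6.86 in the heart-labelled one, 5.91 in the colon-labelled one and 5.21 in the brain-labelled one. The lung-labelled library stood 3.63-fold above the kidney-labelled one. The lowest 3 (heart, colon and brain) overlapped from one neighbour to the next, as did kidney and small intestine. The ratio of Tuba1a to Tuba1b was 2.37 (1.81 to 3.11) in the brain-labelled library, 1.42 (1.14 to 1.77) in the small intestine-labelled one, 0.939 (0.837 to 1.05) in the lung-labelled one, 0.50 (0.340 to 0.736) in the heart-labelled one and 0.117 (0.0728 to 0.187) in the kidney-labelled one. In the colon-labelled library, with 2 reads of Tuba1a and 36 of Tuba1b, it was 0.0556 (0.00648 to 0.216, an exact interval, as are those that follow for this ratio). By RPKM, Tuba1a exceeded Tuba1b beyond counting error in the libraries labelled brain and small intestine and was below it in those labelled colon, heart and kidney. Per uniquely placed position Tuba1a was above Tuba1b beyond counting error only in the brain-labelled library (1.93, 1.47 to 2.56). The ratio in the small intestine-labelled one was 1.16 (0.925 to 1.45). That in the lung-labelled one, 0.764 (0.680 to 0.858), was below 1 beyond counting error, unlike its ratio by RPKM. With copies looked for among the listed mRNAs only, the ratio was 1.29 (0.978 to 1.71) in the brain-labelled library and turned to 0.771 (0.617 to 0.965) in the small intestine-labelled one. Below 1 beyond counting error under all 3 measures were the libraries labelled colon, heart and kidney. In the lung-labelled one the ratio was also below 1 under all 3 (0.509 with listed mRNAs only), but its interval by RPKM reached 1.05.

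As a share of the RPKM of the 3 α genes, Tuba4a took 91.1% in the brain-labelled library, 97.1% in those labelled colon and heart, 77.9% in the kidney-labelled one, 36.8% (34.7 to 39.1) in the lung-labelled one and 85.8% in the small intestine-labelled one. In the lung-labelled library, Tuba1b took 32.6% (30.5 to 34.8), an interval that overlapped that of Tuba4a, and Tuba1a 30.6% (28.5 to 32.7). Per uniquely placed position, Tuba1b led these 3 α genes in the libraries labelled kidney (140 against 63.8 for Tuba4a) and lung (510 against 66.4), and Tuba4a led them in the other 4. Their near copy Tuba1c, described below, is not among the 3.

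**Figure D2:**
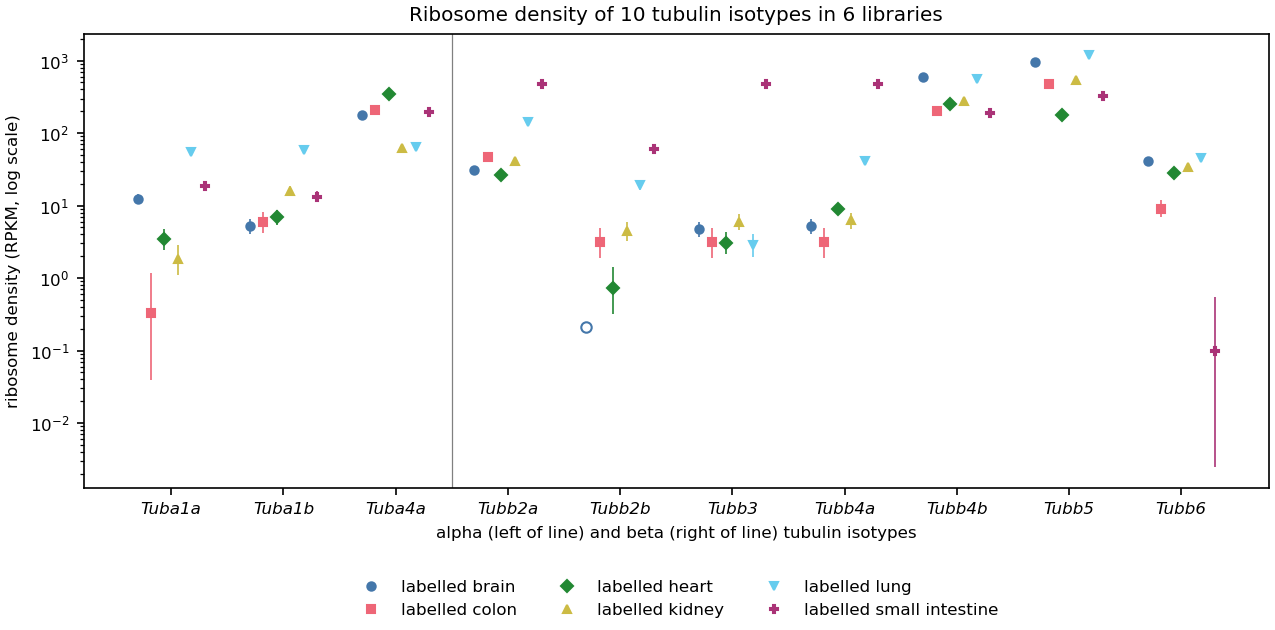
Ribosome density (RPKM, log scale) of the 10 isotypes in the 6 libraries, 1 library per label, with vertical bars for 95% Poisson intervals of counting error. The open circle is Tubb2b in the brain-labelled library, not listed and drawn at the RPKM of 3 reads (0.211). Tubb2a, Tubb3 and Tubb4a lie at 472 to 475 RPKM in the small intestine-labelled library, and Tubb6 there rests on 1 read.

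Tubb5 and Tubb4b carried most of the β density outside the small intestine-labelled library. Tubb5 reached 943 RPKM in the brain-labelled library, 480 in the colon-labelled one, 179 in the heart-labelled one, 537 in the kidney-labelled one, 1198 in the lung-labelled one and 321 in the small intestine-labelled one. It ranked 83rd of all mRNAs in the lung-labelled library and 113th in the brain-labelled one. The highest value was 6.69-fold above the lowest (6.38 to 7.02), and the intervals of all neighbours in the order were apart. The place of the highest value depended on the scaling, since with median-of-ratios scaling, which moved all values of a library by between -0.44 (lung label) and 0.23 (small intestine label) on the log2 scale, the brain-labelled library (905) came above the lung-labelled one (883).

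Tubb4b was the least variable of the 10, with 592 RPKM in the brain-labelled library, 201 in the colon-labelled one, 250 in the heart-labelled one, 281 in the kidney-labelled one, 562 in the lung-labelled one and 189 in the small intestine-labelled one. Its highest value was 3.14-fold above its lowest (2.98 to 3.30), and the intervals of the libraries labelled colon and small intestine overlapped. The ratio of Tubb5 to Tubb4b lay between 1.59 and 2.39 in 5 libraries and was 0.715 (0.675 to 0.758) in the heart-labelled library, so the order of the 2 genes was turned there.

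Tubb3 was read at 475 RPKM (4903 reads) in the small intestine-labelled library and at 5.96, 4.74, 3.12, 3.08 and 2.87 RPKM in those labelled kidney, brain, colon, heart and lung. The first value was 79.7-fold above the next, and the intervals of the other 5 overlapped from each to its neighbour. Tubb4a was read at 472 RPKM in the small intestine-labelled library, 41.2 in the lung-labelled one, 8.99 in the heart-labelled one, 6.24 in the kidney-labelled one, 5.22 in the brain-labelled one and 3.17 in the colon-labelled one. The small intestine-labelled library was 11.5-fold above the lung-labelled one, which was itself 4.58-fold above the next, and the intervals of the lowest 4 overlapped from each to its neighbour.

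The pair Tubb2a and Tubb2b, β isotypes of neurons and of other cells, followed a like order. Tubb2a was read at 472 RPKM in the small intestine-labelled library and 144 in the lung-labelled one, and at 46.6, 41.7, 30.7 and 26.8 in those labelled colon, kidney, brain and heart, with overlapping intervals for colon and kidney and for brain and heart. Tubb2b was read at 59.9 and 19.1 in the first 2 of these, at 4.44 in the kidney-labelled one, 3.16 in the colon-labelled one and 0.732 in the heart-labelled one. Tubb2b was not listed for the brain-labelled library, whereas 1435 mRNAs were listed there at 0, so its level there is not known. If it is counted as 0 reads, and set to the 0.211 RPKM of 3 reads, the small intestine-labelled library was at least 283-fold higher. Tubb2a exceeded Tubb2b by 7.57-fold to 36.6-fold in the 5 libraries in which both had reads. The 7.57 in the lung-labelled library (6.52 to 8.78) and the 7.88 in the small intestine-labelled one (7.24 to 8.57) did not differ beyond counting error. Both genes have 38.7% uniquely placed positions, so these ratios do not change with the second measure.

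Tubb6, a widely expressed β isotype, was lowest where Tubb3 was highest. It was read at 45.2 RPKM in the lung-labelled library, 40.7 in the brain-labelled one, 34.2 in the kidney-labelled one, 28.5 in the heart-labelled one and 9.10 in the colon-labelled one, and at 0.0975, a single read, in the small intestine-labelled one. The intervals of the first 4 overlapped from each to its neighbour. The ratio of highest to lowest was 464, with an interval from 82.8 to 18358. With median-of-ratios scaling the highest value moved to the kidney-labelled library (39.3).

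**Figure D3:**
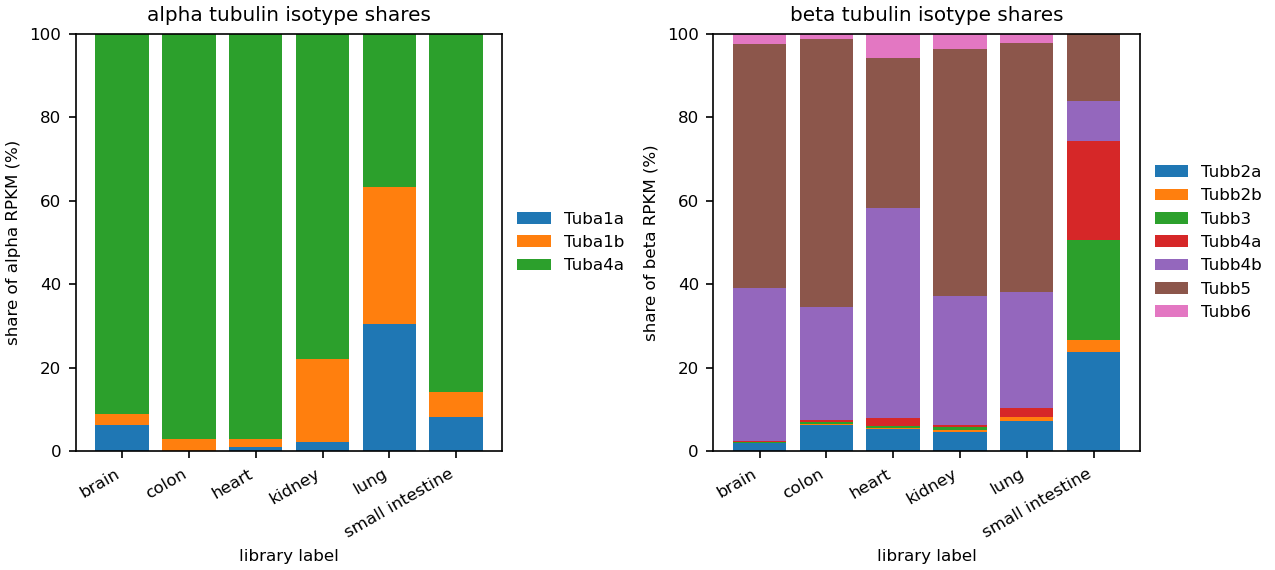
Share of the summed RPKM of the 3 α isotypes (left) and of the 7 β isotypes (right) taken by each gene, in percent, for the 6 libraries. Tubb5 and Tubb4b together hold 86.3% or more of β in 5 libraries, while Tubb3, Tubb4a and Tubb2a hold 23.9%, 23.8% and 23.7% in the small intestine-labelled library.

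Within the β family, Tubb5 took 58.4% of the RPKM in the brain-labelled library, 64.3% in the colon-labelled one, 36.0% in the heart-labelled one, 59.0% in the kidney-labelled one, 59.5% in the lung-labelled one and 16.1% in the small intestine-labelled one. Tubb4b took 36.6%, 27.0%, 50.3%, 30.9%, 27.9% and 9.48% in the same order. Tubb5 therefore led in 4 libraries, Tubb4b in the heart-labelled one, and Tubb3 in the small intestine-labelled one. There, Tubb3 (23.9%, 23.3 to 24.5), Tubb4a (23.8%, 23.2 to 24.3) and Tubb2a (23.7%, 23.1 to 24.3) did not differ beyond counting error. Per uniquely placed position Tubb2a led that library with 42.2% of β, followed by Tubb3 with 17.4%, and the leader of the other 5 libraries did not change.

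The evenness of the β family can be put as an effective number of isotypes, the inverse of the summed squared shares. It was 2.10 in the brain-labelled library, 2.04 in the colon-labelled one, 2.57 in the heart-labelled one, 2.24 in the kidney-labelled one, 2.28 in the lung-labelled one and 4.86 in the small intestine-labelled one. In the last, Tubb4a exceeded Tubb4b 2.5-fold (2.38 to 2.64), whereas in the other 5 the ratio of Tubb4a to Tubb4b was between 0.00883 and 0.0733.

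The 10 genes together took 0.242% of the reads in the brain-labelled library, 0.128% in the colon-labelled one, 0.114% in the heart-labelled one, 0.132% in the kidney-labelled one, 0.292% in the lung-labelled one and 0.297% in the small intestine-labelled one. Since α and β subunits join one to one, the ratio of their summed RPKM was compared. It was 0.122 in the brain-labelled library, 0.289 in the colon-labelled one, 0.716 in the heart-labelled one, 0.0882 in the kidney-labelled one, 0.0879 in the lung-labelled one and 0.115 in the small intestine-labelled one, below 1 in each. Per uniquely placed position the ratio was 0.186, 0.317, 0.791, 0.216, 0.415 and 0.157 in the same order. With every listed α and β tubulin gene counted per uniquely placed position, it was 0.650, 0.458, 1.03, 0.554, 0.511 and 0.165. The heart-labelled library was highest under all 3 measures, and the others changed their order. The ratio stayed below 1 in all 6 libraries per uniquely placed position, and in 5 of 6 in the last measure, which changed both the genes counted and the scale. The small intestine-labelled library was at 0.165 or less under all 3.

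**Figure D4:**
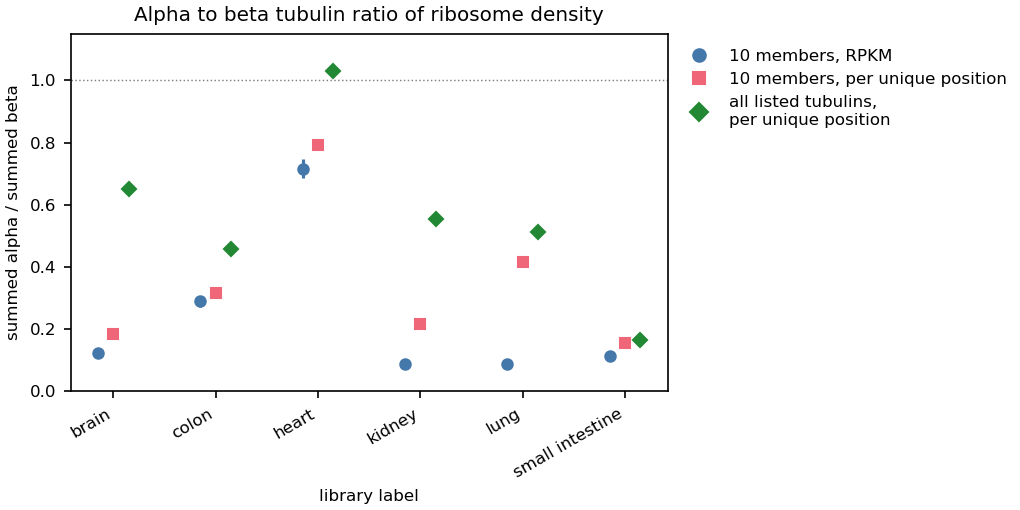
Ratio of summed α to summed β ribosome density in the 6 libraries, from the RPKM of the 10 isotypes (circles, with 95% intervals of counting error), per uniquely placed position (squares), and for all listed α and β tubulin genes per uniquely placed position (diamonds). The dotted line marks a ratio of 1, reached in the heart-labelled library (1.03) in the last measure.

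To describe which isotypes stood out in 1 library, an mRNA was called where its RPKM in 1 library was at least 2-fold above the highest of the other 5, among mRNAs with at least 60 reads over the 6 libraries. Of the 10 isotypes, all with enough reads, 6 were called, and over all 13476 mRNAs tested 42.0% were called. In the small intestine-labelled library 4 isotypes were called (Tubb2a 3.26-fold, Tubb2b 3.14-fold, Tubb3 79.7-fold and Tubb4a 11.5-fold), where the share over all mRNAs was 13.1%. In the lung-labelled library 2 were called (Tuba1a and Tuba1b), where the share over all mRNAs was 11.1%. None was called in those labelled brain, colon, heart and kidney, where 5.90%, 5.03%, 5.03% and 1.91% of all mRNAs were. The median fold of the highest library over the next was 3.00 for the isotypes and 1.73 for all mRNAs. Tuba1a lost its call with median-of-ratios scaling, at 1.80-fold. Tubb2a, Tubb2b and Tubb4a had their next highest value in the lung-labelled library, and Tubb3 in the kidney-labelled one.

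Markers of several cell types were set beside these values. Neuronal markers (Syt1, Elavl4, Uchl1 and Nefl) were all 4 highest in the small intestine-labelled library and summed to 3799 RPKM there and to between 6.77 and 63.9 elsewhere, alongside Tubb3, Tubb4a, Tubb2a and Tubb2b. Fibroblast markers (Col1a1, Col3a1, Pdgfra and Dcn) summed to 377 RPKM in that library and to between 602 and 4137 elsewhere, where Col3a1 and Dcn were each lowest in that library but Col1a1 (202) was above the colon-labelled one (149) and Pdgfra (123) above those labelled brain (73.9), colon (68.4) and heart (98.1). Smooth muscle markers (Myh11, Acta2, Cnn1 and Tagln) summed to 31.6 RPKM there and to between 275 and 3835 elsewhere. Myh11, Acta2 and Tagln were each lowest there, but Cnn1 (0.587) was above the colon-labelled library (0.249). Tagln made up 242 of the 275 in the colon-labelled library, where Myh11 was at 8.56 against 7.40 in the small intestine-labelled one. Tubb6 was lowest in the small intestine-labelled library. Markers of dividing cells (Mki67, Top2a, Birc5 and Cdk1) were all highest in the brain-labelled library, with a sum of 116 RPKM against 66.5 in the kidney-labelled one, 29.7 in the lung-labelled one and 3.73 to 10.7 in the other 3. Markers of motile ciliated cells were all 4 highest in the lung-labelled library, at 1525 RPKM against 48.1 to 475 elsewhere, of which Tppp3 made up 1494. Tubb4b, an isotype of cilia, was at 562 RPKM in that library and at 592 in the brain-labelled one, where Tppp3 was at 198 RPKM, Dnah5 at 0.203, and Foxj1 and Ccdc39 at 0. The part of these cell types in the isotype values was not tested.

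The libraries labelled heart and lung are the pair whose tissue markers were highest under their own labels. In this pair, 7 of the 10 isotypes were at least 2-fold higher in the lung-labelled library and 1 in the heart-labelled one, while of 10115 mRNAs with at least 60 reads over this pair 45.4% were at least 2-fold higher in the former and 19.9% in the latter. The median log2 ratio of lung over heart was 2.31 for the isotypes and 0.78 for all mRNAs. Tubb5 was 6.69-fold higher in the lung-labelled library (6.38 to 7.02) and Tubb4b 2.25-fold (2.15 to 2.35). Tuba1a was 15.8-fold (11.3 to 22.5), Tuba1b 8.40-fold (6.61 to 10.8), Tubb2a 5.39-fold (4.75 to 6.13), Tubb2b 26.1-fold (13.0 to 61.2) and Tubb4a 4.58-fold (3.67 to 5.77) higher. Tuba4a was 5.31-fold higher in the heart-labelled library (4.89 to 5.77), the reverse direction. Tubb3 had a ratio of 0.934 (0.552 to 1.57) and Tubb6 one of 1.59 (1.37 to 1.84). With median-of-ratios scaling the higher counts were 6 (Tubb4b fell to 1.44-fold) and 1, where 31.6% and 28.1% of all mRNAs were, and Tubb6 stood at 1.02. This scaling lowered the lung over heart ratio of every isotype, as for Tuba1a (to 10.1), Tubb5 (to 4.31) and Tuba4a (from 0.188 to 0.121). The intervals above do not include this shift.

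**Figure D5:**
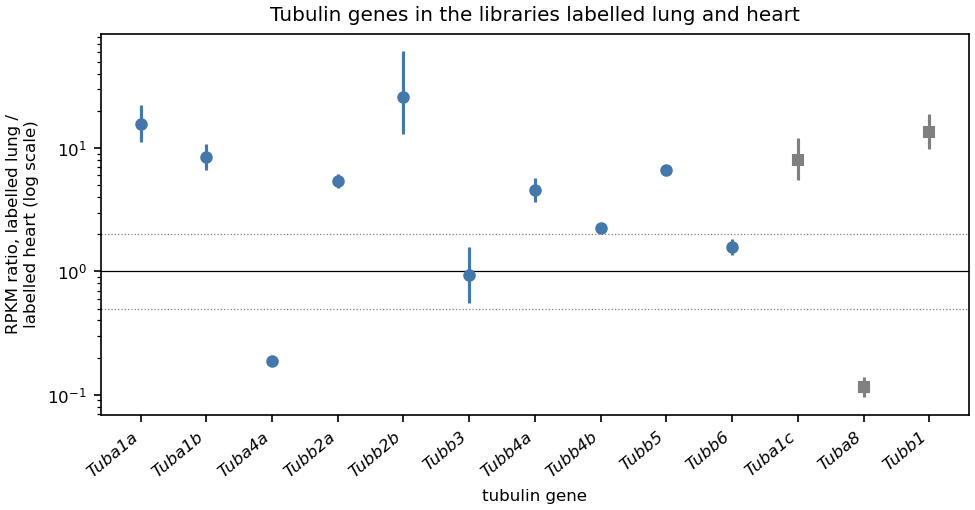
RPKM in the lung-labelled library over the heart-labelled one (log scale) for the 10 isotypes (circles) and for Tuba1c, Tuba8 and Tubb1 (squares), with exact 95% intervals of counting error; dotted lines mark 2-fold either way. Tuba4a (0.188) and Tuba8 (0.116) lie below 1, and 7 of the 10 isotypes lie above 2.

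Other tubulin genes were read beside these 10. Tuba1c, a near copy of Tuba1a and Tuba1b with 9.50% uniquely placed positions, was at 72.7 RPKM in the brain-labelled library, 10.7 in the colon-labelled one, 2.81 in the heart-labelled one, 31.1 in the kidney-labelled one, 22.7 in the lung-labelled one and 1.65 in the small intestine-labelled one. It was 2.33-fold above the next in the brain-labelled library. Per uniquely placed position Tuba1c stood at 765 in the brain-labelled library and 328 in the kidney-labelled one, above Tuba1a, Tuba1b and Tuba4a in both. Tuba8, an α isotype of striated muscle and testis, was at 99.5 RPKM in the heart-labelled library, 8.64-fold above the lung-labelled one, and was not listed in the brain-labelled one. Tubb1, the β isotype of megakaryocytes and platelets, was at 51.2 RPKM in the lung-labelled library and 3.79 in the heart-labelled one. It had 1 read in the colon-labelled library and was not listed in those labelled brain, kidney and small intestine. The platelet marker Itga2b was also highest in the lung-labelled library (15.4 RPKM), while Pf4 was highest in the heart-labelled one (61.7), Ppbp had 1 read in all, in the lung-labelled library, and Gp9 was in no table. Their part in the Tubb1 value was not tested. Tubal3, a divergent α gene, was at 28.2 RPKM in the brain-labelled library and 11.1 in the kidney-labelled one, Tuba3b had 1 read each in the libraries labelled colon and heart, and Tuba3a was in no table. Of the 7 other tubulin genes with enough reads (γ and ε tubulins included; the δ-tubulin Tubd1 had too few), 6 were called, where 42.0% of all mRNAs were. Of these, 2 were called in the brain-labelled library, where 5.90% of all mRNAs were. The median fold was 2.79, against 1.73 for all mRNAs. Among these, Tubg2, a γ-tubulin, was at 10.4 RPKM in the small intestine-labelled library, 11.6-fold above the next.

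Newly made tubulin is folded by prefoldin and the CCT chaperonin and joined by the cofactors Tbca to Tbce with Arl2. All 20 genes of this list had enough reads and 2 were called, the prefoldin subunits Pfdn6 in the colon-labelled library (2.63-fold) and Vbp1 in the lung-labelled one (2.17-fold), against 42.0% of all mRNAs. The median fold over the next library was 1.18, against 1.73 over all mRNAs. Without the colon-labelled library 1 was called, against 45.6% of all mRNAs. Tbca, which binds β-tubulin, was at 903 RPKM in the brain-labelled library, 885 in the colon-labelled one, 585 in the heart-labelled one, 457 in the kidney-labelled one, 853 in the lung-labelled one and 396 in the small intestine-labelled one. Pfdn6 was at 1699 RPKM in the colon-labelled library and at 310 to 647 elsewhere, and Pfdn5 at 1053 there and at 241 to 584 elsewhere, 1.80-fold over the next.

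Of the 28 microtubule-associated proteins and regulators with enough reads, of 29 listed, 18 were called, 12 of these in the small intestine-labelled library, where 13.1% of all mRNAs were. Over any library 42.0% of all mRNAs were called, and the median fold was 2.15, against 1.73 for all mRNAs. Map2, a protein of dendritic microtubules, was at 563 RPKM in the small intestine-labelled library and at most 3.67 elsewhere, a 153-fold difference. Stmn3, a neuronal stathmin that binds tubulin dimers, was at 1213 RPKM and 70.9-fold above the next, and Map1a, which binds axonal and dendritic microtubules, at 689 RPKM and 62.4-fold. These stood with Tubb3 and Tubb4a in the same library. Tppp3, a tubulin polymerization-promoting protein, was at 1494 RPKM in the lung-labelled library, 3.16-fold above the next. In the heart-labelled library Clasp1, a microtubule plus-end protein, was the only one called (6.48-fold). Dcx, a marker of young neurons, had no reads listed in 5 libraries and 2 reads (0.238 RPKM) in the small intestine-labelled one, too few to be tested.

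Of the 15 tubulin-modifying enzymes with enough reads, of 16 listed, 9 were called, where 42.0% of all mRNAs were. They were 4 in the small intestine-labelled library, 4 in the colon-labelled one and 1 in the brain-labelled one, where 13.1%, 5.03% and 5.90% of all mRNAs were called. The median fold was 2.82, against 1.73 for all mRNAs. Without the colon-labelled library 5 were called, where 45.6% of all mRNAs were. Ttll7, which adds glutamate chains to β-tubulin tails, was at 44.3 RPKM in the small intestine-labelled library and at most 3.81 elsewhere (11.6-fold). Vash2, which removes the terminal tyrosine of α-tubulin, was at 8.23 RPKM there (3.98-fold). Agbl5, which removes branching glutamates, was at 5.01 RPKM in the colon-labelled library (4.81-fold). Ttll12 was at 76.2 RPKM in the brain-labelled library (3.49-fold), and Sirt2, a deacetylase of α-tubulin, was highest in the small intestine-labelled library at 300 RPKM, 1.29-fold above the 231 in the heart-labelled one. Vash1, an enzyme of the same kind as Vash2, was at 81.5 RPKM in the small intestine-labelled library and 64.2 in the lung-labelled one.

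Tubulin mRNAs are degraded on the ribosome when free tubulin rises. Ttc5 recognizes the first residues of nascent tubulin and Scaper links it to the deadenylase. These residues are read from the first codons, printed here for 4 isotypes because the codons differ while the start of each family is the same, with the codons after the start codon in capitals. Intervals marked by the coordinates of the α genes include an intron.
Tuba1a (chr15:98849564-98851334, minus strand): atgCGTGAGTGC
Tuba4a (chr1:75194070-75195839, minus strand): atgCGCGAGTGC
Tubb3 (chr8:124138345-124138356, plus strand): atgAGGGAGATC
Tubb5 (chr17:36148934-36148945, minus strand): atgAGGGAAATC
Ttc5 was read at 31.3, 31.1, 30.4, 25.2 and 19.7 RPKM in the libraries labelled small intestine, brain, colon, kidney and heart. It had no reads listed in the lung-labelled one, where 3 reads would give 0.294 RPKM. Scaper was at 17.2 RPKM in the lung-labelled library, 2.67-fold above the next, and at 2.08 to 6.44 elsewhere. Without the lung-labelled library neither gene of this pair was called, where 41.4% of all mRNAs were.

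The mRNAs with patterns most like those of 3 isotypes were found by the mean absolute difference of log2(RPKM + 1), centred over the 6 libraries, among 10585 mRNAs with at least 10 RPKM in 1 library. Nearest to Tubb3 were Kif1a, a kinesin of axonal transport (difference 0.18), Nefh, the heavy neurofilament subunit (0.20), and Synpr, a synaptic vesicle protein (0.21). They were at 129, 166 and 95.4 RPKM in the small intestine-labelled library and at most 1.18 elsewhere. Nearest to Tubb6 were Ahnak (0.34), a large scaffold protein, Clec4n (0.37), a lectin receptor of myeloid cells, and Col3a1 (0.37), a fibrillar collagen that is also in the fibroblast list. Col3a1 was at 2789 RPKM in the kidney-labelled library and 47.0 in the small intestine-labelled one. Nearest to Tuba4a were Zfand5 (0.09), a zinc-finger protein, and the mitochondrial ribosomal protein genes Mrpl11 (0.17) and Mrpl15 (0.20). Among the 10 isotypes themselves, the nearest pairs by this measure were Tubb4b with Tubb5 (0.41) and Tubb2a with Tubb2b (0.63). These are descriptions over 6 libraries, and the neighbours depend on the pseudocount of 1. With a pseudocount of 0.1 or 10, 0 of the 3 named for Tubb3 stayed among its nearest 3. For Tubb6, 1 of 3 stayed with 0.1 and 0 of 3 with 10, and for Tuba4a 3 of 3 and 2 of 3.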

How the data were processed

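Ribosome footprints were measured in 6 mouse tissues, with 1 library each. The authors deposited RPKM values per mRNA, counted on the CDS. Per the labels, Cutadapt, STAR and GRCm39 were used. Alignment to 1 mRNA per gene, without multi-mapped reads, is described in the Methods for macrophages and was assumed for the tissues. Reads were recovered by multiplying RPKM by CDS length and dividing by the value of 1 read. That value was first taken as the smallest positive product in the library, on the assumption that it was 1 read, and then refined. This gave whole reads (within 0.01 read) for 100% of values, from 4504853 to 10635031 per library. Intervals (95%) were Poisson for levels, Wilson for shares and exact for ratios between libraries. Those for ratios between genes of 1 library were approximate unless called exact. All cover counting error only, as reads carry no molecular identifiers here. An mRNA not listed in a library was taken to have no reads there. For calls, an mRNA with fewer than 3 reads was set to 3 reads. Unique positions were counted with windows of 29 nt (P-site at base 12) over GENCODE M39, in which 18236 of 18437 transcripts were found. No test was possible with 1 library per tissue. Some coding stretches are not reported here.

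The members, the lists and the rule for named genes (the members, other tubulins, the nearest 3 mRNAs, and the 3 highest by level and by fold in each list) were chosen with earlier results of these data known. Genes named beyond the rule were chosen after their values were seen. Alternatives covered scaling, thresholds, minimum reads, thinning and each library left out. Recovery of reads and the calls were tested on simulated data. Python 3.11.15, numpy 2.4.6, scipy 1.17.1, Biopython 1.88 and matplotlib 3.10.9 were used.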

Additional observations from a re-analysis of the deposited data

How the results depend on the processing

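With 1 library per tissue, no setting bears on a replicate spread, and depth limits values under about 3 reads. No paired analysis was possible because no tissue has a second library. The count of 6 isotypes called (42.0% of all mRNAs) was 5 with median-of-ratios scaling (40.1% of all mRNAs, Tuba1a lost), 7 at a threshold of 1.5-fold (59.9%), 2 at 4-fold (21.0%), and 6 without Kri1 (40.8%), at a minimum of 10 reads (44.9%) or none (40.5%), and after thinning (40.4%). Leaving out 1 library gave 5 to 7, where 39.1% to 46.2% of all mRNAs were called. Without the lung-labelled library it was 5 (41.4% of all mRNAs, Tuba1a and Tuba1b lost, Tubb4b gained). Without the small intestine-labelled one it was 5 (39.1%, Tubb3 lost, and Tubb2a, Tubb2b and Tubb4a called in the lung-labelled one instead). Without the brain-labelled one it was 7 (45.8%, Tubb5 gained). Added after seeing the data, only the libraries labelled heart and lung gave 8 (65.3% of all mRNAs).

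The tubulin share of reads without Kri1 was 0.247% in the brain-labelled library, 0.138% in the colon-labelled one, 0.170% in the kidney-labelled one and 0.345% in the small intestine-labelled one, and with every tubulin gene 0.256% in the brain-labelled one, 0.129% in the heart-labelled one, 0.138% in the kidney-labelled one and 0.304% in the lung-labelled one. The α to β ratio, with libraries in the order of the report, was 0.186, 0.317, 0.791, 0.216, 0.415 and 0.157 per uniquely placed position. It was 0.168, 0.314, 0.772, 0.211, 0.359 and 0.141 with listed mRNAs only as possible copies, and 0.650, 0.458, 1.03, 0.554, 0.511 and 0.165 with all tubulins per uniquely placed position. With every tubulin gene by RPKM it was 0.185, 0.311, 0.915, 0.137 and 0.102 in the first 5 libraries. The Tuba1a to Tuba1b ratio in the small intestine-labelled library turned from 1.42 to 0.771 with listed mRNAs only as possible copies, an alternative chosen after seeing the data. For the isotype shares, 44 of 60 left their interval per uniquely placed position, 14 of 60 with every tubulin gene and 0 of 60 by reads.

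At 4-fold, where 21.0% of all mRNAs were called, the counts were 3 of 7 for other tubulins and 0 of 20 for folding. They were 8 of 28 for microtubule-associated proteins, 2 of 15 for modifying enzymes and 0 of 2 for autoregulation. Folding gave 1 without Kri1 (40.8% of all mRNAs), and autoregulation 0 with median-of-ratios scaling (40.1%). With the libraries labelled heart and lung only, other tubulins gave 3 and autoregulation 2, where 65.3% of all mRNAs were called. Fewer other tubulins were tested there. Tubal3, Tubg2 and Tube1, with 2, 10 and 12 reads in the heart-labelled library and 0 in the lung-labelled one, fell under the minimum. The number tested in a list can likewise change when a library is left out. Leaving out 1 library gave 4 to 6 for other tubulins, 1 to 2 for folding, 12 to 18 for microtubule-associated proteins, 5 to 11 for modifying enzymes and 0 to 1 for autoregulation. Over all mRNAs, 39.1% to 46.2% were called with 1 library left out. Without the colon-labelled library, folding fell to 1 and modifying enzymes to 5 (45.6% of all mRNAs). Without the lung-labelled one autoregulation fell to 0 (41.4%). The cause was not tested.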
